A study of Mus musculus with 2 samples.

Results

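The genes described here carry cells through DNA replication and mitosis, or set the entry into that cycle in G1. They were named as a list of 46 genes: 13 of DNA replication, 25 of mitosis and 8 of G1 control. Each was read by its brightest probe set, the one with the highest mean signal over both arrays among probe sets annotated to that gene alone. By this rule 45 of the 46 were measured, out of 18193 genes in all; Ccnb1, a mitotic cyclin, had no such probe set in the annotation used here.

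RNA came from precancerous liver of mice with a hepatocyte-specific Pik3ca transgene, which encodes the catalytic subunit of phosphoinositide 3-kinase. One array held RNA of transgenic liver with Kdm3a wild type (Pik3caTg;Kdm3aWT), the other of transgenic liver with Kdm3a knocked out (Pik3caTg;Kdm3aKO). Kdm3a encodes a demethylase of histone H3 lysine 9. Both groups carry the transgene, no liver without it was analysed here, and the labels state neither the promoter that drives it nor the age of the mice, nor whether RNA of several animals was pooled. With 1 array per genotype there is no error between animals and no test, and "lower" or "higher" below compares these 2 arrays. Where a pair of signals is given below, the wild-type array comes first and the knockout array second.

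The label of the knockout was checked first: Kdm3a signal was 719.9 with the gene intact and 61.6 in the knockout, by 1 probe set whose place relative to the deletion is not known here. The 12 hepatocyte markers checked were above the floor on both arrays. The probe sets for 18S ribosomal RNA were 1.74- to 1.89-fold higher in the knockout array. The ratio of 3′ to 5′ signal, a measure of RNA integrity, was 1.85 and 1.99 for beta-actin, and 0.701 and 0.654 for Gapdh, in the wild-type and knockout array. The part of these differences in the results was not tested.

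In adult liver most hepatocytes rest outside the cycle, so transcripts of replication and mitosis are scarce unless cells are driven to divide. D-type cyclins start the cycle and lead to release of E2F factors, which switch on genes for origin licensing and nucleotide supply. Mitotic genes follow later in the cycle, many through DREAM and MuvB complexes that bind a promoter motif called the cell cycle genes homology region. The inhibitors p21 and p27, products of Cdkn1a and Cdkn1b, restrain the kinases that drive these steps.

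Signals below 46.5, a floor set at the 40th percentile of pooled values, were raised to it before a ratio was taken, so that a ratio with 1 floored value is a bound, written "at least". Of the 45 measured genes, 19 were at least 2-fold lower in the knockout array, while 25 differed by less than 2-fold and 1 was higher by 2-fold or more. Over all 18193 genes, 6.32% were at least 2-fold lower and 2.98% at least 2-fold higher. The lower genes comprised 5 of 13 replication genes, 3 of 8 G1 genes and 11 of 24 mitosis genes. Median log2 ratios of knockout over wild type were -0.22, -0.45 and -0.89 in these groups, against 0.00 over all genes. The mitosis median depended on the floor and the probe sets: a floor at the 60th percentile gave -0.033. It was -0.34 with a floor at 91.9, -2.08 with no floor, -0.42 with all probe sets of a gene averaged and -0.31 without probe sets named as matching several transcripts. Scaling the arrays on their spiked poly-A controls raised ratios above the floor by 0.17 on the log2 scale, and scaling on hybridisation controls lowered them by 0.13. Lower genes made up 68.0% of all genes past 2-fold, 52.1% with the first of these scalings and 78.3% with the second. The counts for replication and G1 genes were the same under the 5 scalings tried, and the mitosis count ranged from 10 to 12.

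**Figure D1:**
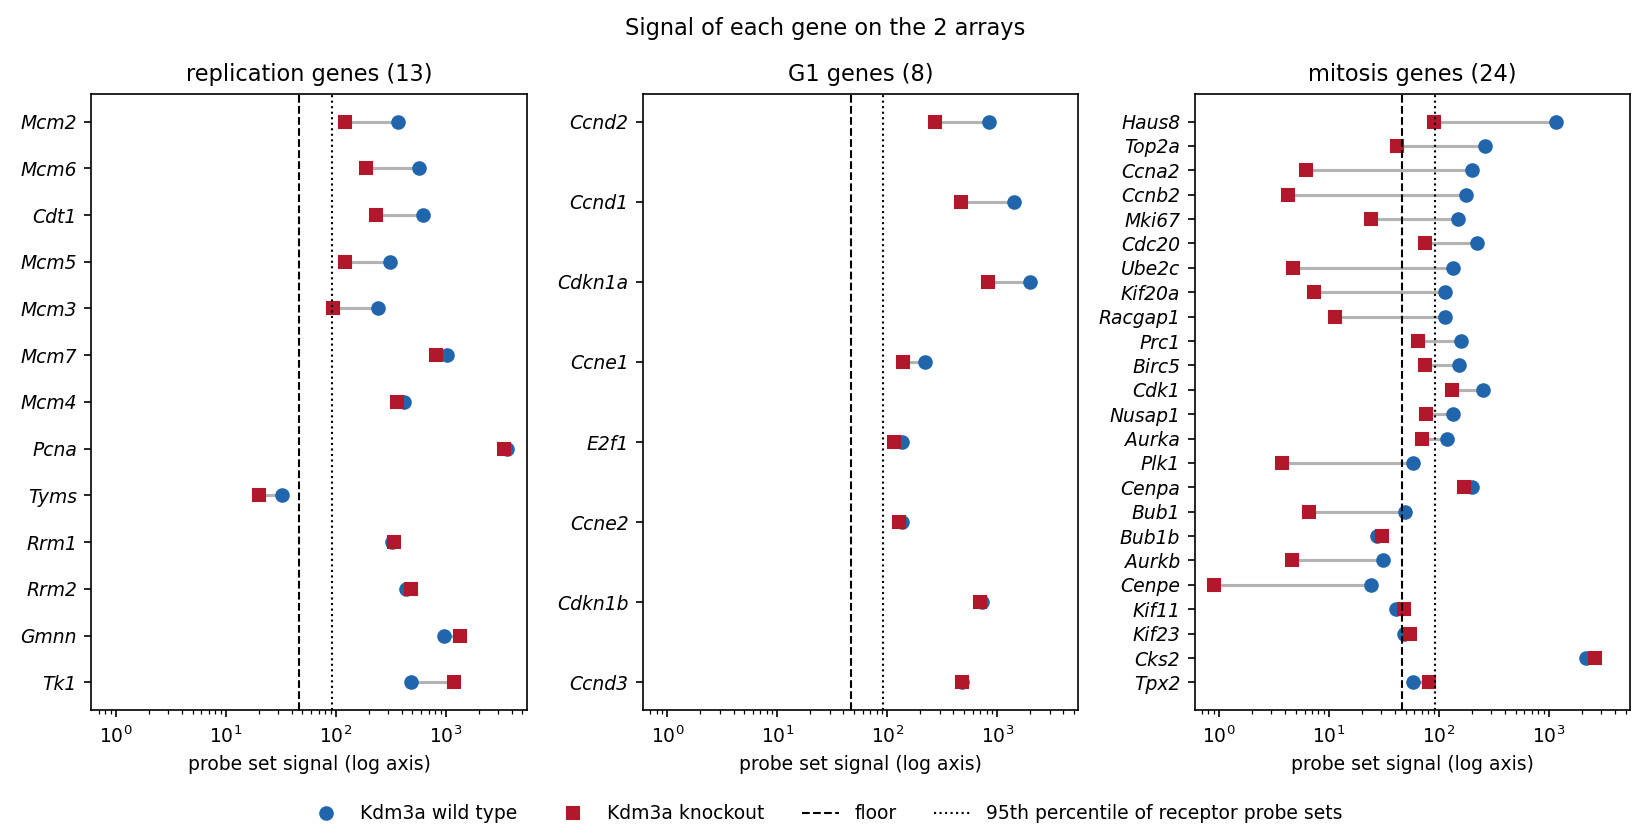
Signal of the brightest probe set of each gene on the wild-type array (circles) and the knockout array (squares), on a log axis, with genes of each group ordered by log2 ratio; the dashed line is the floor of 46.5 and the dotted line the 95th percentile of olfactory and vomeronasal receptor probe sets, 91.9. Many mitosis genes lie left of both lines on the knockout array, while the G1 genes lie right of both lines on both arrays.

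Low signal set the precision of the mitosis genes above all. Of the 24 measured, 11 were above the floor on both arrays, 9 were below it on the knockout array alone, 1 on the wild-type array alone (Kif11) and 3 on both arrays (Aurkb, Bub1b and Cenpe). A second reading of background came from 80 probe sets of olfactory and vomeronasal receptor genes, which liver should lack, whose signals had a 95th percentile of 91.9. At or below that value were 8 of the 24 mitosis genes on the wild-type array and 21 on the knockout array. Replication and G1 genes were mostly clear of background: Tyms was the 1 gene of these 21 below the floor or at or below 91.9 on either array. The genes nearest to the floor by mean signal were Kif11 (44.4), Plk1 (30.7) and Bub1b (28.8) below it, and Kif23 (51.6), Kif20a (60.7) and Racgap1 (62.5) above it.

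Among replication genes, the helicase that unwinds DNA at origins and its loader were the lower ones. The MCM complex is a ring of 6 subunits, Mcm2 to Mcm7, loaded onto origins in G1 with the help of Cdt1. Mcm2 had signals of 371 and 121, 3.05-fold lower. Mcm6 had 568 and 189, a log2 ratio of -1.58. Mcm5 had 310 and 121, 2.57-fold lower, and Mcm3 had 243 and 95.1, 2.56-fold lower. All but a pair of the subunits were thus past 2-fold. That pair lay within 2-fold, Mcm4 at 418 and 360 and Mcm7 at 1041 and 826. Cdt1, the loading factor, had 625 and 231, which is 2.71-fold lower. Its inhibitor geminin, the product of Gmnn, went the other way within 2-fold, at 962 and 1353.

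Genes of nucleotide supply and the sliding clamp did not share the lower values. Tk1, the cytosolic thymidine kinase of the salvage pathway, was the 1 gene of the list that was at least 2-fold higher, with 489 and 1192, 2.44-fold higher. Rrm2, the regulatory subunit of ribonucleotide reductase, had 434 and 485. Its catalytic partner Rrm1 had 323 and 343, a log2 ratio of 0.086 whose sign turned under some scalings. Pcna, the clamp that holds polymerases on DNA, had 3602 and 3409, a ratio of -0.079 whose sign also turned. Tyms, thymidylate synthase of the de novo pathway, had 32.2 and 20.2, both below the floor, so no ratio is given. The replication group thus held lower Mcm2, Mcm3, Mcm5, Mcm6 and Cdt1 beside a higher salvage kinase on the same arrays.

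Other probe sets of the same gene give the only repeat reading on an array. Among the lower licensing genes, a further probe set above the floor on each array stood at -0.77 for Mcm2, -2.37 for Mcm6 and -1.25 for Cdt1. That of Mcm5 had 113 and 35.6, a bound of -1.28. The second probe set of Mcm4 was lower than its brightest one, with signals of 444 and 220 and a log2 ratio of -1.01. Mcm3 was less certain: of its other probe sets, 1 had a ratio of -0.61, 1 had 0.025, and 1 had 78.7 and 13.5, which gives a bound. Its brightest probe set also has a name ending that marks probes matching several transcripts, and without such probe sets the log2 ratio of Mcm3 was 0.025, that of Mcm2 -0.77 and that of Mcm4 -1.01. When all probe sets of a gene were averaged, floored ones included, 2 replication genes were at least 2-fold lower in place of 5. Over all genes that share was 4.37%. Rrm1 differed between its probe sets, at 0.086 and -0.71. Tk1, Pcna and Gmnn were read by 1 probe set each.

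**Figure D2:**
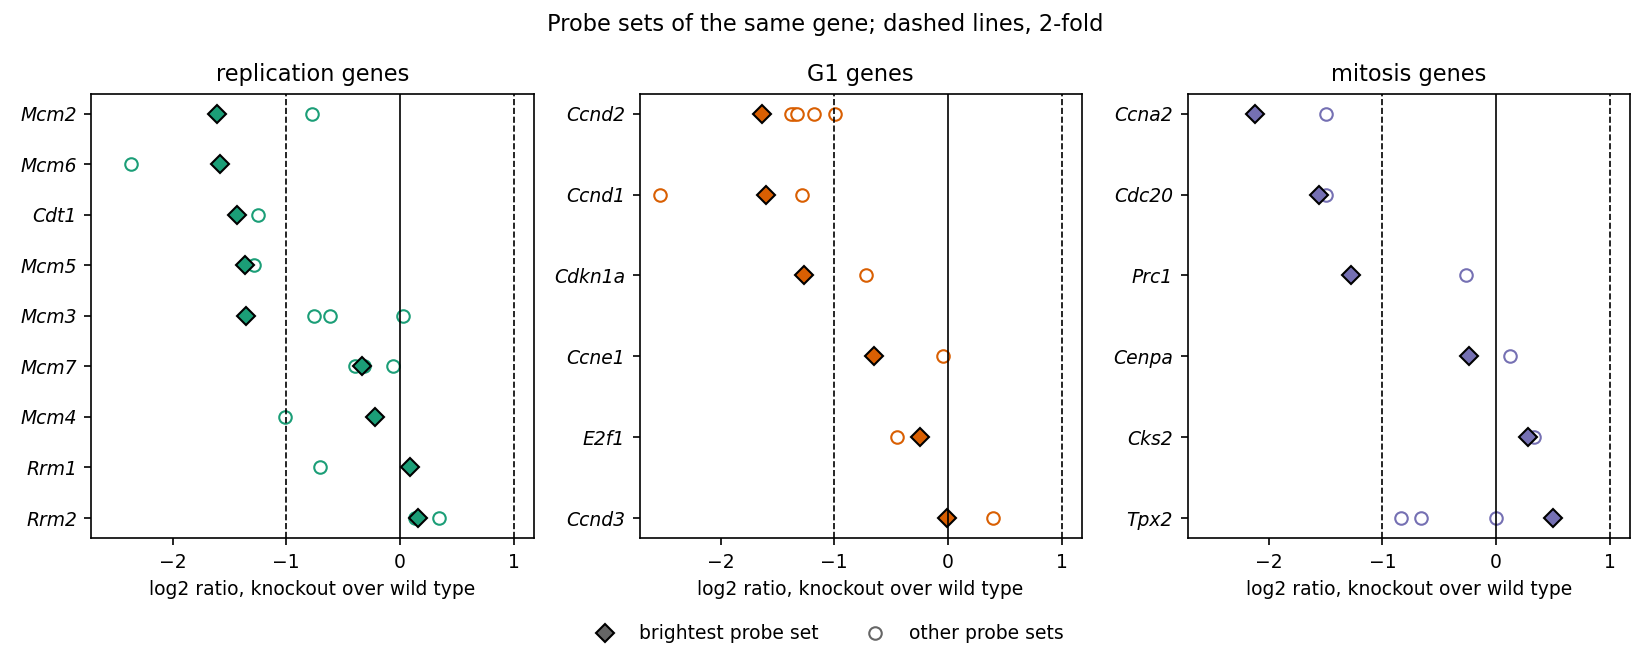
Log2 ratio of knockout over wild type for genes with more than 1 probe set above the floor on at least 1 array; diamonds are the brightest probe set and open circles the others, some of them bounds set by the floor. The probe sets of Ccnd1, Mcm5, Mcm6, Cdt1, Ccna2 and Cdc20 lie left of the 2-fold line, while those of Tpx2, Cenpa and Rrm1 lie on both sides of 0.

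In the G1 group, 2 of the 3 D-type cyclins and the inhibitor p21 were lower. Ccnd1, the main cyclin of hepatocytes entering the cycle, had 1428 and 471, 3.03-fold lower. Ccnd2 had 852 and 274, 3.10-fold lower. Ccnd3 had 483 and 481, a log2 ratio of -0.0067 whose sign turned with the scaling. The other probe sets bear the same split: 2 more of Ccnd1 stood at -2.54 and -1.28, 5 more of Ccnd2 ran from -1.38 to -0.99 (1 of them, at -1.18, a bound), and a second of Ccnd3 was at 0.39. Cdkn1a, whose product p21 is induced by p53 and by growth signals, had 1975 and 822, 2.40-fold lower, with a second probe set at -0.72. Cdkn1b, the gene of p27, had 728 and 704, and its ratio of -0.048 changed sign under some scalings.

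Cyclins and the factor of the step into S phase lay within 2-fold. Ccne1, a cyclin that activates Cdk2, had 219 and 139, but its second probe set had 152 and 148. Ccne2 had 138 and 127, and its ratio of -0.12 changed sign with the scaling. E2f1, a factor that activates replication genes, had 137 and 115, with a second probe set at -0.45. The G1 genes that differed by 2-fold were thus the cyclins Ccnd1 and Ccnd2 and the inhibitor Cdkn1a, while both E-type cyclins, E2f1 and Cdkn1b differed by less.

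Mitosis genes held the lowest ratios of the list, most of them bounds. Cyclin A2, the product of Ccna2, which acts in S phase and G2, had 202 and 6.19, at least 4.34-fold lower. Its second probe set had 132 and 3.44. Ccnb2, a cyclin of the mitotic kinase Cdk1, had 178 and 4.27, at least 3.84-fold lower. Cdk1 itself had 253 and 131 and lay just within 2-fold at -0.95, but passed it under some scalings. Top2a, the topoisomerase that untangles chromosomes, had 263 and 41.9, at least 5.65-fold lower. That value rests on 1 probe set with the name ending _a_at, 1 of the endings that mark matches to several transcripts, of the same gene or of others. The 2 other probe sets of Top2a were below the floor on both arrays. Mki67, the proliferation marker Ki-67 that coats mitotic chromosomes, had 149 and 24.4, at least 3.21-fold lower.

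Genes of mitotic exit and cytokinesis followed. Cdc20, an activator of the anaphase-promoting complex, had 221 and 75.3, above the floor on both arrays and 2.94-fold lower, and a second probe set had 212 and 75.1. Ube2c, the ubiquitin-conjugating enzyme of that complex, had 134 and 4.68, at least 2.88-fold lower. Prc1, which bundles microtubules of the central spindle, had 158 and 65.2, 2.42-fold lower. Also of cytokinesis, the kinesin gene Kif20a (114 and 7.33) and the GTPase activator gene Racgap1 (114 and 11.3) were at least 2.45-fold and at least 2.44-fold lower. Birc5, the survivin subunit of the chromosomal passenger complex, had 153 and 74.6, a log2 ratio of -1.04 that missed 2-fold when poly-A controls set the scale.

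Another 13 mitosis genes were within 2-fold, though for several the floor leaves little room. Aurka, a spindle pole kinase, had 119 and 70.5, and Nusap1, a spindle protein, had 135 and 75.9. Cenpa, the centromeric histone, had 201 and 170, and its second probe set, with 25.2 and 50.8, was near the floor. Plk1, a kinase of mitotic entry, had 57.7 and 3.71, and Bub1, a checkpoint kinase, had 49.7 and 6.64. With wild-type signals so near the floor, the largest fold the floor allows is 1.24 for Plk1 and 1.07 for Bub1, so a 2-fold call was not possible. Bub1b, Aurkb and Cenpe were below the floor on both arrays and have no ratio. The spindle kinesins Kif11 (40.9 and 47.9) and Kif23 (48.5 and 54.6) had signals beside the floor on both arrays. Tpx2, a spindle assembly factor, had 57.8 and 81.9 by its brightest probe set, but its 3 others were below the floor on the knockout array, so their ratios are bounds. Those had 83.2 and 17.6, 73.3 and 45.7, and 46.6 and 18.2.

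Cks2, a small subunit that binds cyclin-dependent kinases, was 1 of 3 mitosis genes above 91.9 on both arrays, with Cdk1 and Cenpa. It had 2174 and 2643, a log2 ratio of 0.28, and its second probe set was at 0.34. Scalings left its sign as it was.

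Haus8 had the lowest ratio of the list. It encodes a subunit of augmin, the complex of 8 HAUS proteins that nucleates microtubules along the spindle. Its signals were 1167 and 89.8, 13.0-fold lower, and its log2 ratio of -3.70 ranged from -3.83 to -3.19 over the 14 settings that give a ratio. Its knockout signal was below the 91.9 of the receptor genes. A single probe set read it, so no second reading was available. The 7 other augmin subunits did not share this difference: their log2 ratios ran from -0.61 for Haus3 to 0.88 for Haus4. In between lay Haus2 (-0.21), Haus7 (-0.15), Haus1 (0.12), Haus6 (0.33) and Haus5 (0.87); Haus4 and Haus5 passed 2-fold higher when poly-A controls set the scale. Of the 5 nearest measured protein-coding genes on each side of Haus8, its neighbour Myo9b was 2-fold lower (794 and 388, a ratio of -1.03), and the other 9 ran from -0.79 for Map1s to 0.95 for Kcnn1.

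The floor decided how many mitosis genes were counted. Of the 11 at least 2-fold lower, 7 were below the floor on the knockout array. Of genes that were above the floor on each array, 4 of 11 mitosis genes (Haus8, Cdc20, Prc1 and Birc5) were at least 2-fold lower, against 7.59% of all such genes. A floor at the 60th percentile left 2 of 24, against 3.86% of all genes. The count was 4 with the floor at the receptor genes' 95th percentile, against 4.54% of all genes. Without probe sets that may match several transcripts it was 6 of 19, against 5.78%, and with no floor 15 of 24, against 14.1%. Without those probe sets, Birc5, Kif20a, Prc1 and Racgap1 were not measured, and Top2a was read by a probe set below the floor on both arrays. The name endings were pooled, so matches to several transcripts of 1 gene and to other genes were not told apart. With all probe sets of a gene averaged, Top2a stood at -0.83, Prc1 at -0.77 and Racgap1 at -0.43. In deposited signals with no floor, 19 of 24 mitosis genes were lower in the knockout array, as were 9 of 13 replication genes, 8 of 8 G1 genes and 50.2% of all genes.

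Lower values were more frequent at low signal in general. Of all genes with a mean signal from the floor to 250, 11.8% were at least 2-fold lower, and of those at 250 or more, 6.95%. In the first range lay 22 genes of the list, of which 13 were lower. In the second lay 16, of which 6 were lower (Mcm6, Cdt1, Ccnd1, Ccnd2, Cdkn1a and Haus8) and 1 was higher. The remaining 7 had a mean signal below the floor, where the floor allows no ratio of 2-fold, so 0 of these could pass it. The bound of 250 was chosen after the values were seen.

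**Figure D3:**
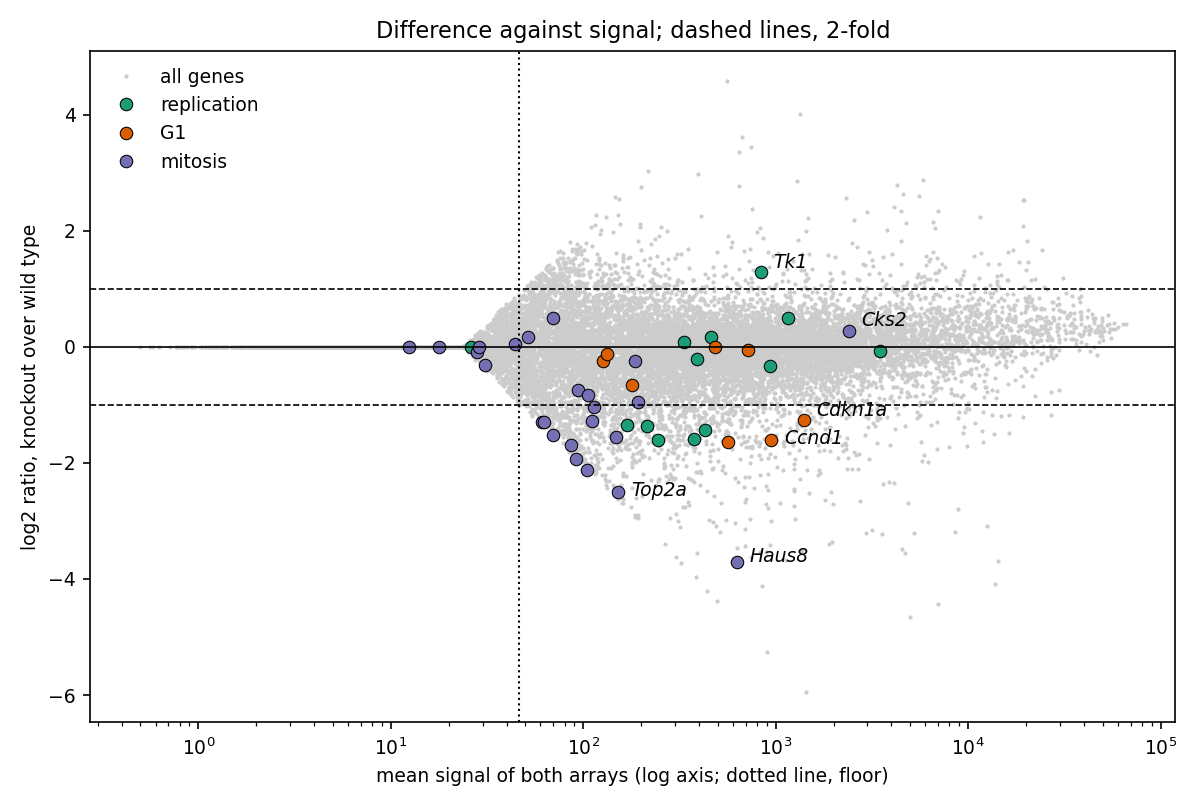
Log2 ratio of knockout over wild type against the mean signal of both arrays, on a log axis, for all 18193 genes (grey) and the replication, G1 and mitosis genes (coloured); dashed lines mark 2-fold and the dotted line the floor. Mitosis genes cluster along the lower edge that the floor sets near a mean signal of 100, whereas Haus8, Ccnd1, Cdkn1a and Tk1 lie well to the right of it.

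The promoters of the genes are shown because groups of them had lower values together. RefSeq promoters of build GRCm38.p6, each 300 bases from 250 before to 50 after the annotated start, were found for 37 of the 46 genes. The searched letters were TTTGAA, the core of the cell cycle genes homology region; CCAAT, the box bound by the factor NF-Y; and TTGGCGC or TTCCCGC, cores of E2F-type sites. Both strands were searched with no mismatch. The stretches printed run from 170 bases before to 30 after the start, 5′ to 3′ along the gene, with matches in capitals. Mitosis genes that were at least 2-fold lower come first: Ccnb2 at chr9:70421525-70421724 (minus strand), Cdc20 at chr4:118437314-118437513 (minus strand), Ube2c at chr2:164769759-164769958 (plus strand) and Top2a at chr11:99024160-99024359 (minus strand).
Ccnb2: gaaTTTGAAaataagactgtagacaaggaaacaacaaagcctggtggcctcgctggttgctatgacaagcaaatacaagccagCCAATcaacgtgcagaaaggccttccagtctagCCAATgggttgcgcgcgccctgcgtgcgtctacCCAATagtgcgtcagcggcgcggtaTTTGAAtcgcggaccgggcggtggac
Cdc20: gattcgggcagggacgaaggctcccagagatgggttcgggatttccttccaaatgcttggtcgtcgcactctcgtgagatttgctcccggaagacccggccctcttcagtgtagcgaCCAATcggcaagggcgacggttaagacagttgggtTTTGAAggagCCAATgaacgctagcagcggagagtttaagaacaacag
Ube2c: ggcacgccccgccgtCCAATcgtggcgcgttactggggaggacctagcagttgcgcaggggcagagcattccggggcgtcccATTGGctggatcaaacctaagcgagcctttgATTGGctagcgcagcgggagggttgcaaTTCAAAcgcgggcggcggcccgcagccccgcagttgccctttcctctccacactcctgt
Top2a: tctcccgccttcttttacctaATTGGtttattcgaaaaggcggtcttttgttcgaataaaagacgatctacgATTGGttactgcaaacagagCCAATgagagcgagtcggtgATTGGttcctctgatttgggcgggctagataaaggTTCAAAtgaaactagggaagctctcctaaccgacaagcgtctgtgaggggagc

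In each of these stretches a TTTGAA core, forward or as TTCAAA, lies near the start site with 2 or more CCAAT boxes, on either strand. The reverse complement of TTGGCGC ends in CCAA and can share bases with a CCAAT box, which did not occur in the printed stretches. Among mitosis genes with a promoter, 14 of 21 held the TTTGAA core and 18 of 21 a CCAAT box, against 20.2% and 41.1% of 27025 genes. The TTTGAA core was found in 7 of 9 mitosis genes that were at least 2-fold lower and in 7 of 11 within 2-fold. For the CCAAT box these counts were 7 of 9 and 10 of 11. No promoter of a mitosis gene within 2-fold is printed here, and a link between motif and ratio was not tested.

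Licensing genes that were lower come next, Mcm5 at chr8:75109339-75109538 (plus strand), Mcm6 at chr1:128359676-128359875 (minus strand) and Cdt1 at chr8:122567845-122568044 (plus strand). After them stand Tk1 at chr11:117825985-117826184 (minus strand), the gene with the higher value, and Haus8 at chr8:71272561-71272760 (minus strand), the gene with the lowest ratio.
Mcm5: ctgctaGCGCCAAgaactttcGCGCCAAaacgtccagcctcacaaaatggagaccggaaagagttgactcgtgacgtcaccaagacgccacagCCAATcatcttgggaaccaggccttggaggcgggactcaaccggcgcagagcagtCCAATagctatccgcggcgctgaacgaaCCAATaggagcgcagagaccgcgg
Mcm6: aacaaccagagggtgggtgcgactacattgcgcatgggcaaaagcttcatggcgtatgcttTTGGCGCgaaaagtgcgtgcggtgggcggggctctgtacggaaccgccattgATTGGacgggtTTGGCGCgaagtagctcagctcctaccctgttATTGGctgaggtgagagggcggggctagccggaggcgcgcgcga
Cdt1: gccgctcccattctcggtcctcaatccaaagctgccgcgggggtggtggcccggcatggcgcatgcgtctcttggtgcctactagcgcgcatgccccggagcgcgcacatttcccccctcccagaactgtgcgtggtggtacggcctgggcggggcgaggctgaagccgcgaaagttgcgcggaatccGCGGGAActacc
Tk1: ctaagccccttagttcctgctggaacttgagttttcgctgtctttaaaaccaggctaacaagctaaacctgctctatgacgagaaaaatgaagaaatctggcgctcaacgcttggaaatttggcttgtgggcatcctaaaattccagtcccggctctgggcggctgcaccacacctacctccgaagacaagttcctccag
Haus8: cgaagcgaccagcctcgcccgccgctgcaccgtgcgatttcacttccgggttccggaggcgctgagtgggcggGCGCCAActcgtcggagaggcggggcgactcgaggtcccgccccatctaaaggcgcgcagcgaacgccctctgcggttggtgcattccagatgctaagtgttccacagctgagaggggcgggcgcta

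E2F-type cores stand in all but the Tk1 stretch, which held no match to any of the searched letters. Among replication genes with a promoter, 6 of 11 held an E2F-type core, against 7.79% of all genes: 4 of the 5 that were at least 2-fold lower and 2 of 6 others. The TTTGAA core was found in 1 of the 11. Of mitosis genes, 4 of 21 held the E2F-type core, Haus8 among them, which held neither TTTGAA nor CCAAT in its 300 bases. A match of letters is a description of these windows and no evidence of binding in liver.

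In related lists of the same processes, smaller shares of genes were past 2-fold lower, a difference that was not tested. The part of low signal, where the floor allows no 2-fold call, was not tested either. Of 43 other measured replication genes, 4 were lower by at least 2-fold and 1 was higher; they had a median log2 ratio of -0.12. The fork protection gene Timeless had 213 and 66.4 (-1.68), the polymerase subunit Pole 118 and 57.6 (-1.03), and the GINS subunit Gins3 102 and 56.4 (-0.86). Highest were Mcm10, which helps to start helicase unwinding, with 741 and 2248 (1.60), then Gins4 (0.69) and Chaf1b (0.67). The 3 probe sets of Mcm10 differed, from 0.091 to 1.60. Orc1 to Orc6, genes of origin licensing like Mcm2 to Mcm7, lay within 2-fold, from -0.76 for Orc1 to 0.15 for Orc3. Cdc6, also of licensing, had 47.2 and 37.7, too near the floor for a 2-fold call. The lower count and the higher gene stood beside 6.32% and 2.98% over all genes.

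Of 46 other mitosis genes, 10 were lower by at least 2-fold and 3 were higher, at a median of -0.31. Over all genes these shares were 6.32% and 2.98%. The counts were 5 and 1 with the floor at 91.9, and 1 and 2 when all probe sets of a gene were averaged. Of all genes, 4.54% and 4.37% were at least 2-fold lower in these settings. Higher were 299 and 391 of 18193 genes. On the wild-type array, 24 of these 46 genes were at or below 91.9, against 8 of the 24 measured genes of the mitosis group. With no floor, 20 of the 46 were at least 2-fold lower, against 15 of the 24 and 14.1% of all genes. Lower by any amount in deposited signals were 37 of the 46 and 19 of the 24, beside 50.2% of all genes. Lowest of those above the floor on each array were the chromosome-bound kinesin Kif22 with 582 and 187 (-1.64), the condensin subunit Smc2 with 347 and 150 (-1.21) and the passenger complex subunit Incenp with 243 and 106 (-1.20). Kif22 and Incenp had 3 probe sets each that disagreed, from -1.64 to 0.94 and from -1.55 to 1.34. Highest was Pttg1, the gene of securin, which holds back separation of sister chromatids. It had 1585 and 9569 and was 6.04-fold higher, with 3 probe sets from 2.15 to 2.81. Ccnf (0.83) and Kif4 (0.79) lay within 2-fold.

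Of 25 other G1 control genes, 3 were lower by at least 2-fold and 0 were higher, at a median of -0.23. The lower ones were Rbl1, a relative of the retinoblastoma gene, with 253 and 75.5 (-1.75), the transcription factor gene Myc with 608 and 206 (-1.56), and the Cdk4 and Cdk6 inhibitor gene Cdkn2c with 1350 and 648 (-1.06). The 3 probe sets of Rbl1 ran from -1.75 to -0.016. Tfdp2 (0.78), E2f5 (0.62) and E2f4 (0.33) were highest. Because Cdkn1a is a target of p53, 14 other measured p53 targets were set beside it: 6 were lower by at least 2-fold and 0 were higher, at a median of -0.83. Beside this list and the other G1 control genes stand shares over all genes of 6.32% lower and 2.98% higher. The kinase gene Plk2 had 1065 and 347 (-1.62), the stress gene Gadd45a 616 and 223 (-1.47), and Ccng1, a cyclin G gene, 4041 and 1778 (-1.18; 3 probe sets from -1.18 to -0.16). Bbc3 (0.69), Trp53inp1 (-0.059) and Btg2 (-0.20) were highest. Of the 14, 4 were past 2-fold when poly-A controls set the scale, and 3 when all probe sets of a gene were averaged. Of all genes, 4.84% and 4.37% were at least 2-fold lower in those settings.

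Markers of other liver cells differed between the same arrays. Their counts, here and in the next paragraph, stand beside 6.32% of all genes at least 2-fold lower and 2.98% higher. In bulk tissue, fewer cells of a type and less RNA per cell cannot be told apart, and these genes can come from hepatocytes or any other dividing cell. Of 12 markers of stellate cells and fibroblasts, 8 were lower by at least 2-fold, with summed signals of 42219 and 21342, as were 7 of 8 cholangiocyte markers, with sums of 6250 and 1007. Macrophage markers were lower in 6 of 14 and higher in 2, with sums of 55080 and 36993. Endothelial markers were within 2-fold in 10 of 10 cases (9506 and 8689). Hepatocyte markers were higher in 2 of 12 and lower in 0, with sums of 432000 and 598876.

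Many lymphoid and blood cell markers had low signals, but the neutrophil markers S100a8 (1071 and 324) and S100a9 (895 and 198) did not on the wild-type array. T and NK cell markers were lower in 2 of 9 cases (sums of 1020 and 767), B and plasma cell markers in 1 of 7 and higher in 1 (924 and 1021), neutrophil markers lower in 3 of 7 and higher in 1 (2438 and 911), and erythroid markers higher in 2 of 5 (817 and 1302). Below the floor on both arrays were Cd4, Ncr1 and Cd79a. The part of these cell types in the lower replication and mitosis values was not tested.

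**Figure D4:**
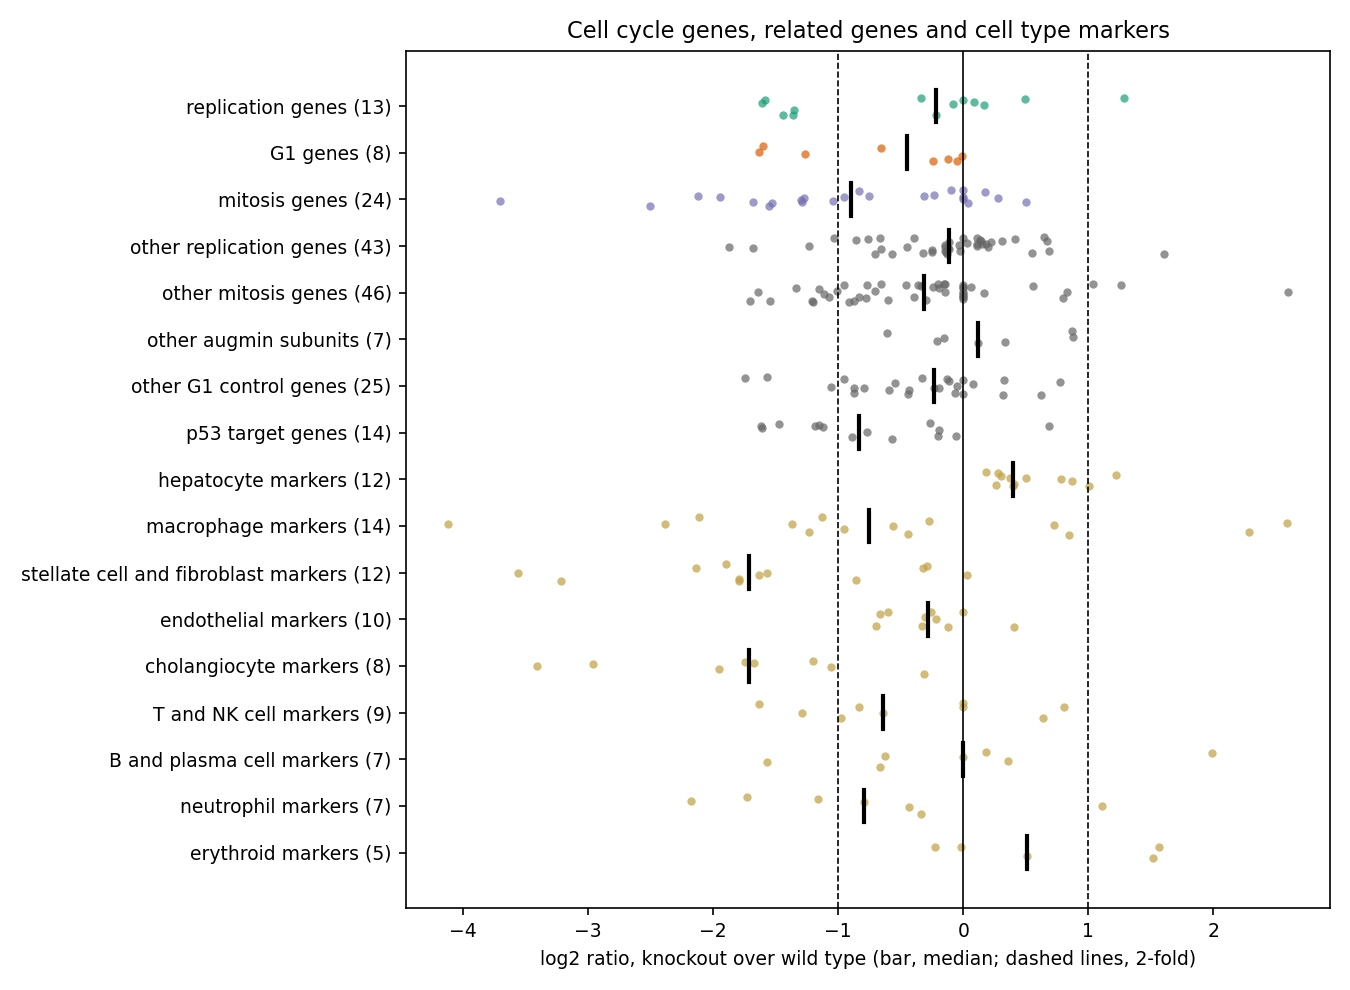
Log2 ratio of knockout over wild type for each measured gene of the replication, G1 and mitosis groups, of 5 related gene lists and of markers of 9 cell types; each dot is a gene, black bars are medians, dashed lines mark 2-fold and numbers in brackets are genes measured. Mitosis genes have the lowest median of the 3 groups, at -0.89 with the floor at 46.5, and stellate cell and cholangiocyte markers have medians of -1.71.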

How the data were processed

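Per the labels, biotin-labelled cRNA was made from 250 ng of liver RNA and hybridised to Affymetrix arrays. Intensity values per probe set, on a linear scale, were deposited; the submitters' processing notes name MAS5, which summarises the probes of a set. No settings, detection calls or build of that step were found, so these stand as not given in the sources used here. After trimming 2% from each end, both arrays had a mean of 500.004, so they had been scaled to a common level.

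Of 45101 probe sets, 34945 were annotated to 1 gene, 932 to several and 9160 to none in the table used; 64 were controls. Symbols were updated through a RefSeq table (GRCm38.p6) for 34741. The measure was the log2 ratio of the 2 arrays for the brightest probe set, with a floor and no filter on low values, so that low genes stayed in; 33 of the 45 measured genes had a mean at or above 73.7, the median over probe sets. Probe sets of 1 gene with a mean at or above that median differed in log2 ratio with an SD of 0.446 over 4958 genes. Lower probe sets are not covered by this SD, and 13 of the 24 measured mitosis genes reached that median. Named genes were the 46 listed, Kdm3a, the augmin subunits, Orc1 to Orc6 and Cdc6. Of each further list, up to 3 highest and 3 lowest among genes above the floor were also named. The genes, lists and rules were chosen with earlier results of these data known. Alternatives were other scalings, floors, filters, probe set choices and fold rules of 1.5 and 3. Counting was tested on simulated data. Tools were Python 3.11.15, pandas 2.3.3, numpy 2.4.6 and statsmodels 0.14.6 (loess, span 0.3).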

Additional observations from a re-analysis of the deposited data

How the results depend on the processing

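With 1 array per genotype no replicate could be left out. No paired analysis was possible because each genotype has 1 array, which leaves no second pair. Replication genes at least 2-fold lower numbered 5, but 2 with all probe sets of a gene averaged and 1 at 3-fold. Mitosis genes numbered 11, but 2 with the floor at the 60th percentile, 4 with the floor at the receptor genes' 95th percentile (chosen after seeing the data), 4 where both signals had to exceed the floor, 6 without probe sets whose names end in _s_at, _x_at, _a_at or _f_at, and 5 at 3-fold. The G1 count of 3 stayed within 1.5 times under the 15 alternatives tried. Over all genes, lower and higher counts of 1150 and 542 became 2024 and 1523 with the floor at the 20th percentile, 702 and 250 at the 60th, 2567 and 2170 with no floor, 2409 and 1681 at 1.5-fold and 409 and 102 at 3-fold. The higher count was 299 with the receptor gene floor. Mcm3 turned from -1.35 to 0.025 without probe sets of those name endings, because another probe set was then read. Of the other values, 541 moved by no more than the SD between probe sets of 1 gene and 63 by more. The 541 include settings that only drop genes, which leave the ratio of each kept gene as it was. They also include scalings on spiked controls, which shifted ratios above the floor by 0.17 or -0.13, less than that SD of 0.446. The tally describes these settings and is no measure of error. Signal over background limits the mitosis genes most: 21 of 24 were at or below 91.9 on the knockout array.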
